A study of Mus musculus with 25 samples.

Results

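The miR-344 copies are 5 microRNA precursors, mmu-mir-344-1, mmu-mir-344-2, mmu-mir-344d-1, mmu-mir-344d-2 and mmu-mir-344d-3 (the prefix mmu, for mouse, is left out from here on), out of 1193 precursors counted in mouse brain. They were selected by name, and they were chosen with their differences between ages already known. Their age values are therefore a description: no p-value is given for a copy, and whether a copy was called is stated only beside the share of all precursors called. The counted precursors hold 13 members of the miR-344 family, so 8 further family rows (mir-344b, c, e, f, g, h-1, h-2 and i) stood outside the choice. The choice does not hold every repeated hairpin, since mir-344h-1 and mir-344h-2 give the same mature miRNAs as each other.

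Small RNAs were sequenced from brain hemispheres of 25 male C57BL/6 mice, an inbred laboratory strain, in groups of 5 aged 2, 9, 15, 24 or 30 months. No treatment or genetic change is given for any group, so the groups differ by the labelled age. The title of each library carries a different animal number, and the libraries were taken as separate animals that are not paired across ages. A hemisphere is a mixed tissue, and fewer cells of one type cannot be told apart from less RNA per cell.

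A miRNA is cut from a hairpin in a longer transcript, first in the nucleus by Drosha and then in the cytoplasm by Dicer, which leaves a short duplex of a 5p and a 3p arm. The loaded strand finds messenger RNAs mainly through its seed, bases 2 to 8 of the mature miRNA, so miRNAs with the same seed share most predicted targets. The miR-344 hairpins form a cluster on mouse chromosome 7 beside Ndn and Magel2, imprinted genes expressed from the paternal allele, in the region that corresponds to the human Prader-Willi syndrome locus.

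The 3p arms divide the 5 copies into a pair and a trio, and they are shown because reads from them cannot be placed on 1 copy. All sequences are RefSeq entries on GRCm38.p6, written 5′ to 3′ with the seed in capitals. All 13 family rows matched an entry by name. Mature miR-344-3p is identical in mir-344-1 and mir-344-2 and shares its seed with miR-344c-3p, while miR-344d-3p is identical in the 3 miR-344d copies and shares its seed with miR-344e-3p. The 3p arms of mir-344b and of the 2 mir-344h hairpins have seeds of their own.
miR-344-3p: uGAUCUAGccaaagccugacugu
miR-344c-3p: uGAUCUAGucaaagccugacagu
miR-344d-3p: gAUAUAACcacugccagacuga
miR-344e-3p: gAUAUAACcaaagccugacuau
miR-344b-3p: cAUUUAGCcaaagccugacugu
miR-344h-3p: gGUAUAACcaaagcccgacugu

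The seed AUAUAAC of miR-344d-3p and the seed GAUCUAG of miR-344-3p differ, so the pair and the trio do not form one seed group through their 3p arms. Counted from 1 at the 5′ end of the mature RNA, miR-344c-3p differed from miR-344-3p by C9U and U21A, both outside the seed. MiR-344e-3p differed from miR-344d-3p at 5 positions, C11A, U12A, A16U, G21A and A22U, also outside the seed.

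The 5p arms link the pair and the trio and also separate the trio's copies, which is why they are shown next, again with the seed in capitals. The seed GUCAGGC was common to 6 mature 5p sequences of the family, those of mir-344 (both copies), mir-344b, mir-344c, mir-344d-1, mir-344d-3 and mir-344g. Mir-344d-2 was the exception among the 5 copies, with the seed GUCUGGU. From miR-344d-1-5p to miR-344d-2-5p the substitutions were A5U, C8U, C20U and A21U, with the first 2 inside the seed. From miR-344d-1-5p to miR-344d-3-5p they were G10A, C11G, C15U and A21U, with none in the seed.
miR-344-5p: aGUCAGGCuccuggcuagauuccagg
miR-344d-1-5p: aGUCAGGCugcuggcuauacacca
miR-344d-2-5p: aGUCUGGUugcuggcuauauucca
miR-344d-3-5p: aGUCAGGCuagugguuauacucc

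The whole hairpins show how little separates the copies, here with both mature arms in capitals and the rest in lower case.
mir-344-1: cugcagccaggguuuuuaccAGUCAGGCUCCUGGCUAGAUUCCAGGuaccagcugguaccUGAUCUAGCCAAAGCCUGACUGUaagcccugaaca
mir-344-2: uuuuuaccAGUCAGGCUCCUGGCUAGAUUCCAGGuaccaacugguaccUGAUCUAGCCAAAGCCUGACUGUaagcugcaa
mir-344d-1: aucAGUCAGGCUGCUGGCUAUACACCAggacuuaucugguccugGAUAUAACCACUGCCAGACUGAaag
mir-344d-2: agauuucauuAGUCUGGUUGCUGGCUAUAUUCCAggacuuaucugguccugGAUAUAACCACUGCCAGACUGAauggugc
mir-344d-3: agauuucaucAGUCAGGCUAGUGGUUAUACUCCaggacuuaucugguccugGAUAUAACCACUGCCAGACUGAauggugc

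Aligned without gaps at the 3p arm, mir-344-1 and mir-344-2 differed at 5 of 80 bases. Counted from the 5′ end of the mir-344-1 hairpin these were G52A in the loop and C88U, C89G, U90C and G91A beyond the 3p arm, so both mature arms were the same. The miR-344d hairpins were 91.2% to 92.8% identical, with every difference before or after the 3p arm. No stretch of 20 bases was common to a hairpin of the pair and a hairpin of the trio in the 6 combinations compared. With other family rows, each hairpin of the pair shared 2 overlapping windows of 20 bases with mir-344b, and mir-344d-2 shared 2 overlapping windows with mir-344e. The deposited table adds both arms of a hairpin together, so reads of a 5p arm that name 1 copy are not separated from reads of the 3p arm that do not.

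All 5 hairpins lie on the minus strand of chromosome 7 within 257.0 kb, and the RefSeq and GENCODE M21 positions were the same for each. Mir-344d-1 (chr7:61683124-61683192) and mir-344d-2 (chr7:61685272-61685351) lie 2.08 kb apart in no annotated host gene on their strand. Mir-344d-3 (chr7:61726249-61726328) and mir-344-1 (chr7:61877770-61877864) lie in introns of the long intergenic non-coding RNA A230057D06Rik, and mir-344-2 (chr7:61940027-61940106) lies in an intron of the non-coding transcript A330076H08Rik. Mir-344e, mir-344h-1, mir-344h-2, mir-344b and mir-344c lie between mir-344d-3 and mir-344-1, whereas mir-344g, mir-344f and mir-344i lie beyond mir-344-2. Within 1000 kb of a copy the RefSeq table held 13 miRNA hairpins, all of them miR-344, and no hairpin overlapped a copy. The nearest protein-coding genes were Ndn at 406.5 kb, Magel2 at 437 kb, Mkrn3 at 477.5 kb and Peg12 at 522 kb.

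**Figure D1:**
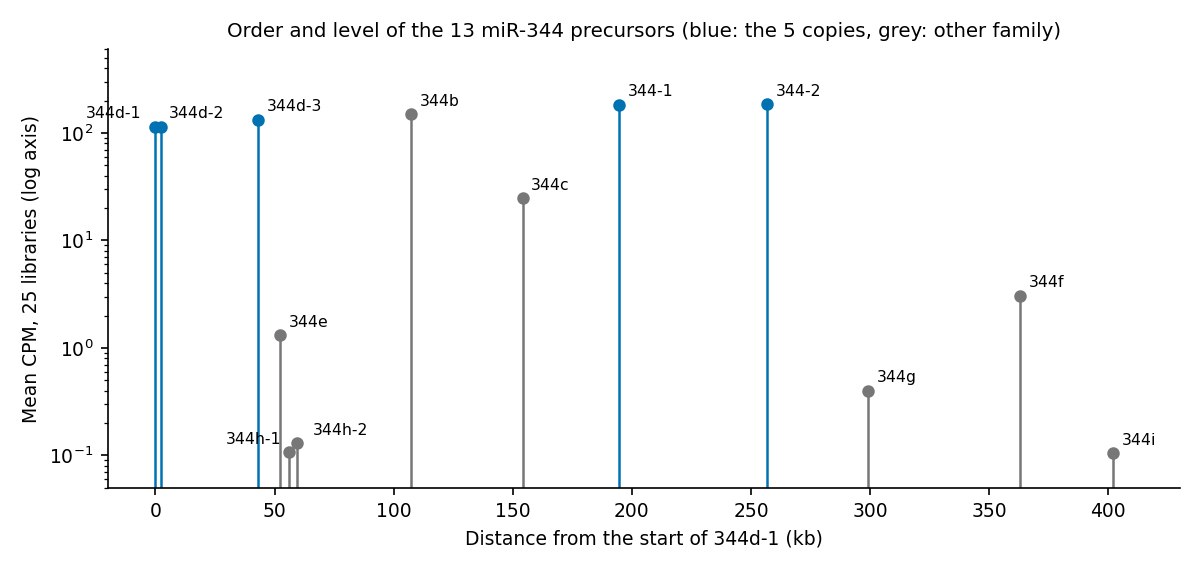
Mean level of each of the 13 miR-344 precursors over 25 libraries, in CPM (read counts relative to library size) on a log axis, against the distance in kb from mir-344d-1; blue marks the 5 copies and grey the other family members. The 5 copies and mir-344b lie between 114 and 186 CPM, mir-344c at 24.8 CPM, and the 6 others between 0.104 and 3.07 CPM.

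The libraries held 3.78 to 9.52 M counts (M stands for mega), and the middle library held 5.61 M. Each copy had 338 counts or more in every library. Reads amplified by PCR and lacking molecular identifiers do not each stand for 1 molecule, so the exact intervals of read shares cover counting error only. A list of 13 neuron-enriched precursors (the mir-124, mir-9, mir-128, mir-137, mir-138 and mir-218 rows) was detected in full and summed to 71186 to 92970 CPM, so the brain label and its markers go together. The table columns carry the sequencing lane, and lane 3 of the 6 lanes held 1 library of each age.

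Mir-344-1 and mir-344-2 were the rows of the family with the highest means, 184 and 186 CPM over all 25 libraries. Levels here are CPM scaled by edgeR's TMM factors and not divided by length, since miRNA reads come from arms of similar length. Mir-344b, which is not one of the copies, came next with 149 CPM. It was followed by mir-344d-3 with 132 CPM, and by mir-344d-1 and mir-344d-2 with 114 CPM each. In the order of mean level over all precursors mir-344-2 took place 184 and mir-344d-3 place 208. Mir-344-1 and mir-344-2 did not differ beyond their spread, and neither did mir-344d-1 and mir-344d-2. The order of the copies depends on how reads of shared arms were divided, which is not given. Summed over its copies, the pair averaged 370 CPM and the trio 361 CPM over the 25 libraries.

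Mir-344-1 was lowest at 2 months and highest at 30 months on average. At 2 months the 5 libraries held 169, 150.4, 136, 156 and 150.04 CPM. At 9 months they held 170.1, 200.2, 145, 173 and 169 CPM. At 15 months the values were 188, 169, 221.5, 181 and 156 CPM. The ranges of these 3 youngest groups overlapped, and the highest library at each age was the one in lane 3. At 24 months mir-344-1 stood at 183, 207, 184, 233 and 190.3 CPM. At 30 months it stood at 186, 203, 223, 195 and 251 CPM. The lowest library at 30 months was above the highest at 2 months (186 against 169 CPM).

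Mir-344-2, the second source of the same mature miR-344-3p, gave nearly the same series. Its libraries held 179, 149.6, 136, 159.5 and 146 CPM at 2 months, and 173, 213, 155, 184 and 166 CPM at 9 months. The means of these groups were 154 ± 16.1 and 178 ± 22.3 CPM (SD, n = 5). They held 179.6, 157, 229, 179 and 163 CPM at 15 months, and 187, 201, 194, 242 and 185 CPM at 24 months. At 30 months the values were 196, 204, 218.9, 197 and 255.7 CPM, again all above the 2-month libraries.

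Mir-344d-1, the hairpin with the lowest coordinate in the cluster, stood at 83.7, 116, 113, 92.9 and 101 CPM at 2 months. It stood at 113, 92.3, 104, 118 and 104 CPM at 9 months and at 86.0, 115, 94.2, 109 and 123 CPM at 15 months. Up to 15 months the groups overlapped almost in full, with means of 101 ± 13.4, 106 ± 9.79 and 106 ± 15.3 CPM (SD, n = 5). The libraries at 24 months held 133, 122, 134, 105 and 119 CPM. Those at 30 months held 143, 119.5, 154, 141 and 123 CPM, and the lowest of them exceeded the highest at 2 months by a narrow margin (119.5 against 116 CPM).

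Mir-344d-2, the copy with its own 5p seed, stood at 75.9, 112, 121, 93.3 and 102 CPM at 2 months. Its libraries held 107, 85.9, 103, 109.7 and 105 CPM at 9 months and 113, 109.7, 96.2, 116 and 121 CPM at 15 months. They held 134, 127, 131, 98.6 and 128 CPM at 24 months and 138, 126, 144, 135 and 119 CPM at 30 months. Here the ages overlapped, because the lane 3 library at 30 months (119 CPM) lay below the highest 2-month library (121 CPM).

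Mir-344d-3 held 98.1, 132, 123, 105 and 113 CPM at 2 months, 128, 108, 116, 129 and 124 CPM at 9 months and 128, 138, 114, 136 and 144 CPM at 15 months. At 24 months it held 145, 156, 144, 114 and 138 CPM, and at 30 months 164, 152, 169, 161 and 131 CPM. The lane 3 library was the lowest at each of the 5 ages, and at 30 months it lay just below the highest library at 2 months (131 against 132 CPM).

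**Figure D2:**
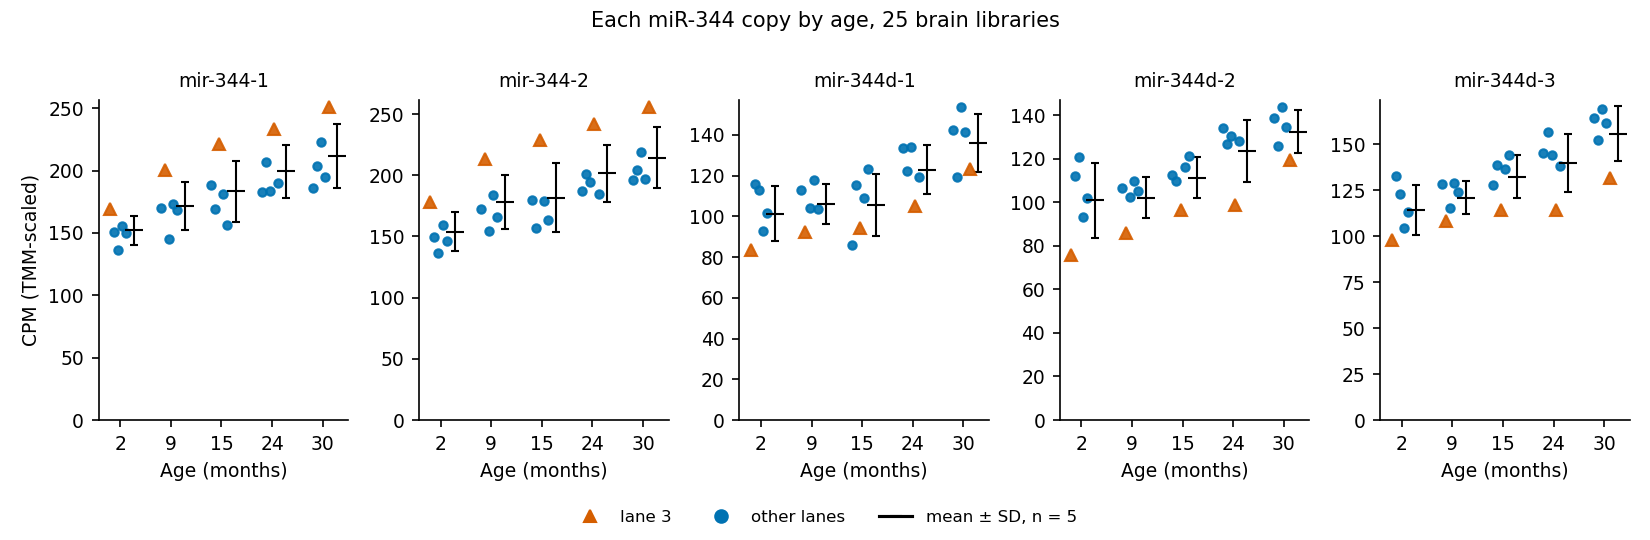
CPM of each copy in the 25 libraries by age in months, with orange triangles for lane 3, blue circles for the other lanes and black bars for the mean and SD of 5 libraries. The orange triangles top mir-344-1 and mir-344-2 at each age and are lowest for mir-344d-2 and mir-344d-3 at each age, while every panel climbs from 2 to 30 months.

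All 5 copies were called higher at 30 than at 2 months by edgeR's quasi-likelihood fit, at a threshold of 0.05 on p-values adjusted over the 425 precursors tested, of which 19.1% were called higher and 17.9% lower. Under upper-quartile scaling 50 of 141 calls over all precursors were higher, against 81 of 157 here. The log2 fold change was 0.48 ± 0.10 (SE) for mir-344-1 and 0.48 ± 0.11 for mir-344-2. It was 0.43 ± 0.11 for mir-344d-1, 0.39 ± 0.11 for mir-344d-2 and 0.45 ± 0.09 for mir-344d-3. Their median was 0.45, against 0.05 for all tested precursors. In 3 of the 5 (mir-344-1, mir-344-2 and mir-344d-1) all 30-month libraries lay above all 2-month libraries, an arrangement found for 10.4% of the tested precursors. These age differences are what the copies were chosen with, so nothing is read from either count.

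Across all ages the slope was nearly the same for each copy. Per 12 months the log2 level increased by 0.20 ± 0.04 (SE) for mir-344-1, 0.19 ± 0.04 for mir-344-2, and 0.18 for each miR-344d copy, with SEs of 0.04, 0.04 and 0.03. All 5 slopes were called rising, as were 19.5% of tested precursors. No single step between neighbouring ages was called for any copy. The share of all tested precursors called in either direction was 7.76% from 2 to 9 months, 0% from 9 to 15 months, 0.235% from 15 to 24 months and 8.71% from 24 to 30 months. Among the 5 copies, unadjusted p-values under 0.05 (edgeR) numbered 0, 0, 1 and 0 in these steps. Among all 425 tested precursors they numbered 97, 27, 46 and 95. No tool other than edgeR was run on the steps.

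Because reads of a shared arm can be divided between copies in a way not given in the sources used here, the copies were also summed before the fit. The summed pair averaged 306 ± 27.6 CPM at 2 months and 426 ± 50.3 CPM at 30 months (SD, n = 5), which is a fitted log2 difference of 0.46 ± 0.09 (SE). The summed trio rose from 316 ± 43.8 to 424 ± 37.5 CPM, a log2 fold change of 0.41 ± 0.10. For each sum the 30-month libraries lay above the 2-month libraries, an arrangement found for 10.4% of the tested precursors. For the trio the margin was narrow, with 374 CPM as the lowest at 30 months and 360 CPM as the highest at 2 months.

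The sum of all 5 copies was less scattered than the pair or the trio alone. It held 605, 660.3, 629, 606 and 612 CPM at 2 months and 690.5, 699.6, 622, 713 and 668 CPM at 9 months. It held 695, 689, 755, 721 and 708 CPM at 15 months, and 783, 814, 787, 793 and 760.2 CPM at 24 months. At 30 months the libraries held 828, 805, 908, 829 and 881 CPM. Neighbouring ages overlapped except between 15 and 24 months, where the highest younger library (755 CPM) lay just below the lowest older one (760.2 CPM). The log2 fold change from 2 to 30 months was 0.42 ± 0.04 (SE), or 1.34-fold, and the slope was 0.18 ± 0.02 per 12 months.

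**Figure D3:**
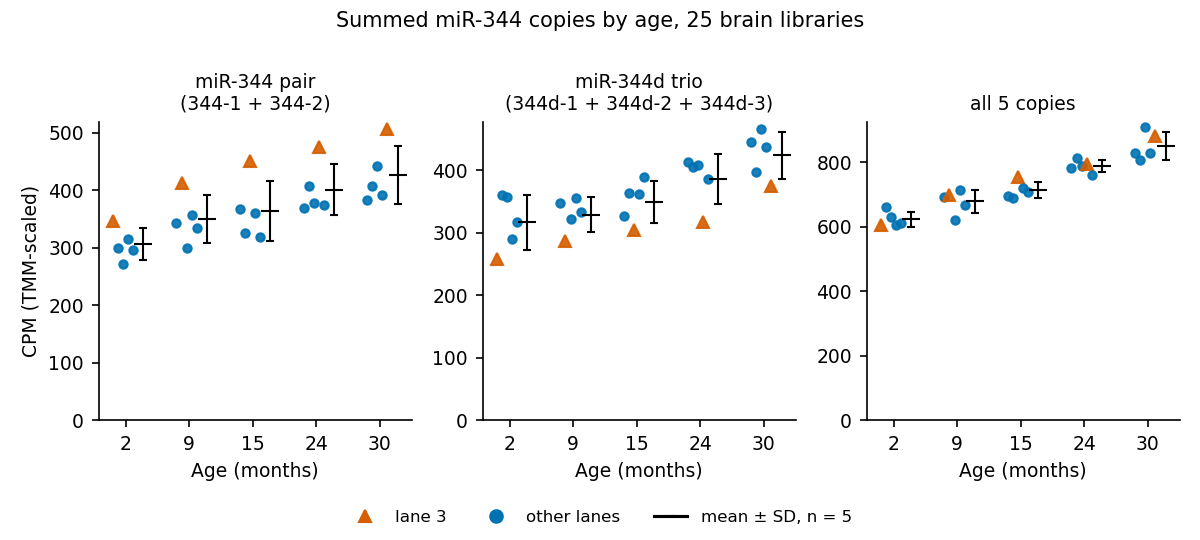
CPM of the summed pair, the summed trio and the sum of all 5 copies in the 25 libraries by age in months, with orange triangles for lane 3, blue circles for other lanes and black bars for the mean and SD of 5 libraries. Lane 3 is highest in the pair and lowest in the trio at each age, and the sum of all 5 climbs from 605 to 660.3 CPM at 2 months to 805 to 908 CPM at 30 months.

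In 4 lanes that held a library of both ages, the within-lane difference (30 minus 2 months, log2(CPM + 0.5)) of the 5-copy sum was 0.54 in lane 3, 0.40 in lane 5, 0.41 in lane 6 and 0.57 in lane 7. For single copies the smallest of these differences was 0.19, for mir-344d-2 in lane 5. With lane as a term in the fit the log2 fold change of the sum was 0.42, and without the lane 3 libraries it was 0.41.

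The reads were divided evenly within the pair and unevenly within the trio. Mir-344-1 took 48.4% to 51.8% of the pair's reads, and the exact 95% interval included 50% in 25 of 25 libraries. Both mature arms are identical in these hairpins, so reads of the arms do not name a copy. The share thus shows how reads were assigned and cannot show the output of either hairpin. The lowest share was 1082 of 2235 reads (48.4%, exact interval 46.3% to 50.5%, 9-month replicate 3). The highest was 837 of 1615 reads (51.8%, exact interval 49.4% to 54.3%, 15-month replicate 2).

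Within the trio mir-344d-3 took the largest share in 25 of 25 libraries, 34.5% to 39.2%, where an equal division would give 33.3%. Mir-344d-1 took 26.3% to 33.1% and mir-344d-2 took 29.5% to 34.5%. The lowest mir-344d-3 share was 617 of 1790 reads (34.5%, exact interval 32.3% to 36.7%, 2-month replicate 3), an interval that includes the equal share. The lowest mir-344d-1 share belonged to replicate 1 at 15 months, where mir-344d-3 had its highest share, 503 of 1284 reads (39.2%, exact interval 36.5% to 41.9%). By age, the mean share of mir-344d-3 was 36.2% ± 1.34 at 2 months, 36.8% ± 0.789 at 9 months, 37.9% ± 0.793 at 15 months, 36.1% ± 1.40 at 24 months and 36.7% ± 1.13 at 30 months (SD, n = 5). These means lay within about the spread of the libraries, as did those of the other copies, so the division among copies showed no order by age.

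The pair and the trio moved in opposite directions in the lane 3 libraries. This contrast was chosen after the values were seen, and with age in the fit 28.7% of tested precursors were called different between lane 3 and the other lanes. All 5 copies were among them. Mir-344-1 and mir-344-2 were higher in lane 3 by 0.29 ± 0.04 and 0.34 ± 0.04 (log2, SE), while mir-344d-1, mir-344d-2 and mir-344d-3 had log2 differences of -0.24 ± 0.06, -0.32 ± 0.05 and -0.28 ± 0.05. At each of the 5 ages the lane 3 library had the highest summed pair and the lowest summed trio.

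The differences cancelled in the sum of all 5 copies, whose lane 3 difference was 0.00 ± 0.03. The pair made up 57.4% to 59.9% of the 5-copy reads in lane 3 and 43.3% to 53.0% in the other lanes. The spread within ages, as a pooled SD of log2 CPM, was 0.16 for the pair, 0.15 for the trio and 0.06 for all 5. Spearman's rho between pair and trio was 0.29 over the 25 libraries and 0.77 over the 20 libraries outside lane 3, both given as descriptions over libraries that share ages and lanes. Among the other family rows, mir-344b had a lane 3 difference of -0.26 ± 0.05 (adjusted p = 5.5e-04, edgeR) and mir-344c one of 0.25 ± 0.11 (adjusted p = 0.0850, not called). MiR-344-3p and miR-344c-3p begin with U, whereas miR-344d-3p begins with G and miR-344b-3p with C. The 5p arms of these hairpins all begin with A, and the counts add both arms. The part of the first base, and of any difference in library preparation or sequencing in lane 3, was not tested.

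**Figure D4:**
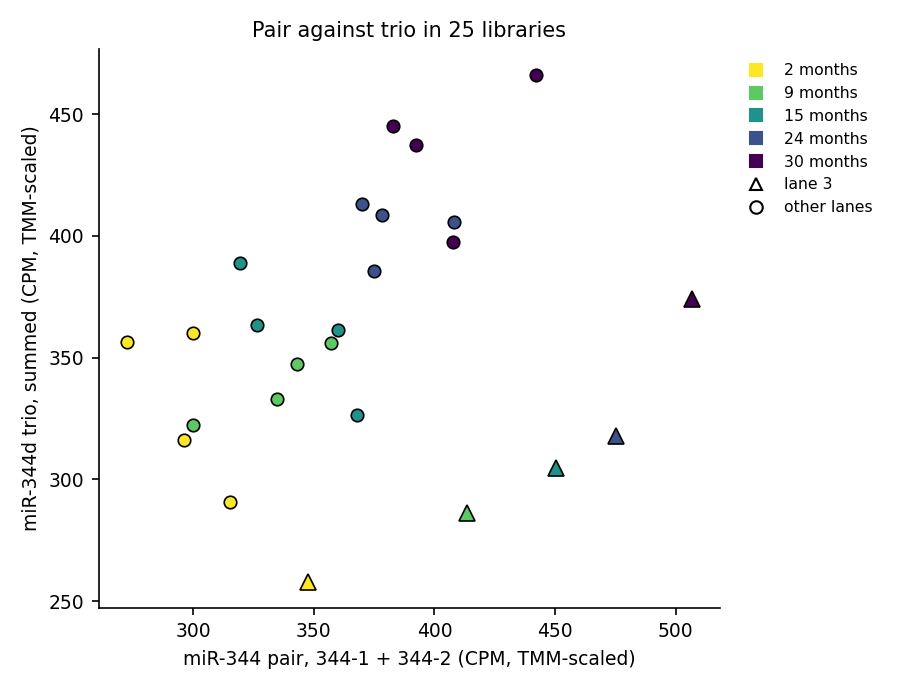
Summed trio (vertical axis, CPM) against summed pair (horizontal axis, CPM) in the 25 libraries, coloured by age in months, with triangles for lane 3 and circles for other lanes; neither axis starts at 0. The 5 triangles form a line of their own to the lower right, at 347 to 507 CPM of the pair and 258 to 374 CPM of the trio, and run upward with age as the circles do.

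Of the 8 family rows outside the choice, 4 passed the filter on low counts, and their age differences were tested over the same 425 precursors. Mir-344b, with a 3p seed of its own, was higher at 30 months, with 163 ± 14.2 CPM, than at 2 months, with 132 ± 16.4 CPM (SD, n = 5). The change was 0.30 ± 0.09 on the log2 scale (SE, adjusted p = 0.0116, edgeR). Its libraries held 105, 141, 148, 136 and 131 CPM at 2 months and 175, 163, 173, 164 and 139 CPM at 30 months, so the 2 groups overlapped, with the lane 3 library lowest at both ages. The slope passed too, at 0.11 ± 0.03 per 12 months (adjusted p = 0.0102, edgeR). The call of the fold change was lost without replicate 1 at 2 months (0.19, adjusted p = 0.0970), without replicate 1 at 30 months (0.23, adjusted p = 0.0755) and without replicate 3 at 30 months (0.24, adjusted p = 0.0734). The call of the slope was lost in the same 3 refits, with adjusted p-values of 0.0672, 0.0618 and 0.0561 (edgeR).

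Mir-344c, which shares the seed of miR-344-3p, did not pass. It had 25.8 ± 4.97 CPM at 2 months and 24.0 ± 3.05 CPM at 30 months (SD, n = 5). The log2 difference was -0.10 ± 0.15 (SE, adjusted p = 0.631, edgeR). Mir-344e, which shares the seed of miR-344d-3p, held only 2 to 17 counts per library and had a log2 fold change of 0.01 ± 0.47 (adjusted p = 0.987, edgeR). Mir-344f had 3.43 ± 0.777 CPM at 2 months and 2.33 ± 0.536 CPM at 30 months (SD, n = 5). Its log2 difference was -0.58 ± 0.27 (adjusted p = 0.0968, edgeR). In all, 1 of the 4 rose and 0 fell by edgeR, where 19.1% of all tested precursors rose and 17.9% fell. An unadjusted p under 0.05 was found for 2 of the 4, against 197 of 425 of all tested precursors, so both shares lay near the background. DESeq2 likewise called 1 higher. Whether the copies differed from these rows in their age change was not tested.

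The other 4 rows were near the limit of detection. Mir-344g had 0 to 7 counts per library, mir-344h-1 0 to 2, mir-344h-2 0 to 3 and mir-344i 0 to 2. A library with 0 counts allows up to 3 counts, and mir-344h-1 was at 0 in 14 of 25 libraries. These rows did not pass the filter on low counts, so their age differences were not tested.

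**Figure D5:**
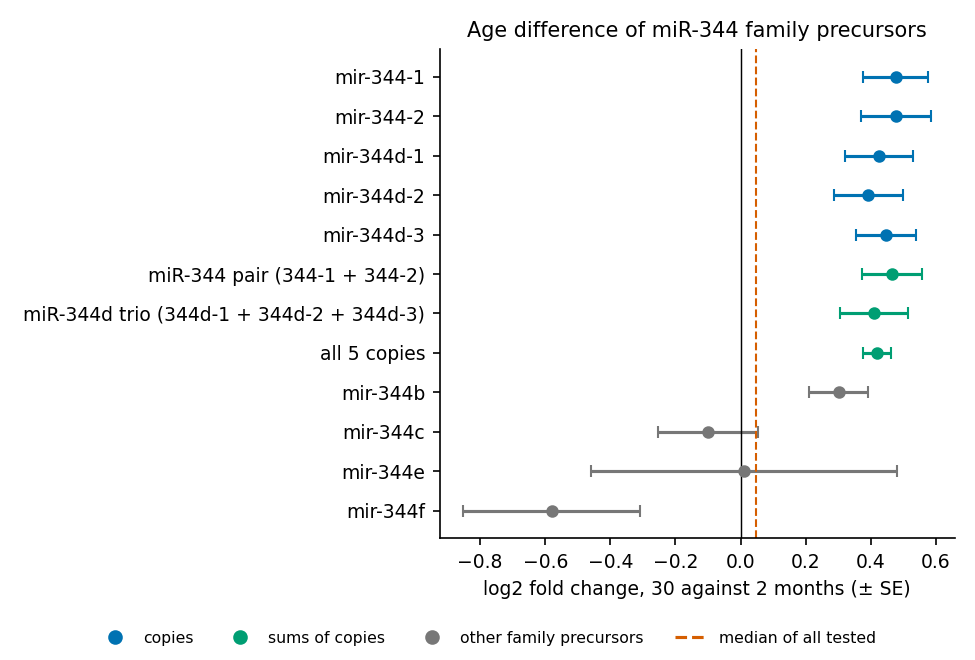
Log2 fold change from 2 to 30 months with its SE for the 5 copies (blue), their sums (green) and the 4 other tested family precursors (grey); the dashed line is the median of all tested precursors. The copies and sums lie between 0.39 and 0.48, mir-344b at 0.30, mir-344c and mir-344e at -0.10 and 0.01, and mir-344f at -0.58.

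The precursors whose level followed the pair and the trio most closely were looked for among 318 tested precursors outside the family with at least 10 CPM on average. Over the 25 libraries the highest Spearman's rho with the pair belonged to mir-339 (0.81), mir-16-2 (0.81), mir-16-1 (0.79), mir-27b (0.79) and mir-488 (0.79). With the trio it belonged to mir-21a (0.89), mir-146a, a miRNA induced by inflammatory NF-kB signalling (0.86), mir-744 (0.85), mir-3065 (0.84) and mir-338 (0.82). Mir-338 is an oligodendrocyte miRNA, and mir-3065 comes from the opposite strand of its hairpin, so the 2 are not separate observations where strand was not used in counting. Mir-16-1 and mir-16-2, copies of the same miRNA with means of 4683 and 4650 CPM, are not separate observations.

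The order within these lists changed with lane, and the libraries share ages and lanes. Without lane 3 the rho with the pair was 0.77 for mir-488 and 0.76 for mir-339, and with lane means removed it was 0.90 for mir-488 and 0.79 for mir-339. For the trio, mir-21a and mir-146a each had 0.84 without lane 3. With lane means removed mir-146a had 0.94, mir-3065 0.86, mir-338 and mir-744 0.83 each, and mir-21a 0.82.

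Markers of other cell types also differed with age in the same libraries, and their counts are to be read against the 19.1% of tested precursors called higher and 17.9% called lower. The oligodendrocyte list (mir-338, which held 69.6% of its CPM, with both mir-219a rows) was called higher in 3 of 3 members. It summed to 2487 to 2913 CPM at 2 months and 3612 to 4554 CPM at 30 months, without overlap. Its summed level had a Spearman's rho of 0.79 with the trio and 0.49 with the pair over the 25 libraries. Mir-338 alone had 0.82 with the trio, so the rho of the list and that of mir-338 are not separate observations. Each rho of a marker list includes the lane 3 libraries, where the pair was higher and the trio lower. No rho of a list was computed without lane 3, and the part of lane in these values was not tested. The choroid plexus and ciliated-cell list, led by mir-204, was called higher in 3 of 6 tested members, with sums of 7717 to 9189 CPM at 2 months and 9158 to 10201 CPM at 30 months, and rho was 0.67 with the pair and 0.27 with the trio.

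In the neuron list 0 of 13 members were called higher and 5 lower, with sums of 82865 to 92753 CPM at 2 months and 74492 to 92970 CPM at 30 months. Several of these rows, such as the mir-9 rows, are copies of the same miRNA, so the calls are not separate observations. The median log2 fold change of the neuron list was 0.09, against 0.05 for all tested precursors. The summed level of the neuron list had a rho of -0.62 with the pair and -0.05 with the trio. Of the microglia and immune list 3 of 5 were higher and 1 lower, with sums of 1242 to 1352 and 1158 to 1333 CPM. Mir-150 held 60.5% of that list's CPM, so the sums mainly give mir-150. The hindbrain list was higher in 1 of 2 tested members, and its mir-196a-1 was at 0 in all 25 libraries. The erythroid list of 4 and the epithelial and sensory list of 8 had 0 called in either direction by edgeR. The part of any of these cell types in the miR-344 values was not tested.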

How the data were processed

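For each of 25 libraries the authors deposited raw read counts of miRNA precursors. Per the labels' protocols, total RNA was made into libraries with the TruSeq small RNA kit. Tools named in the submitters' processing notes are Trimmomatic 0.36, SAMtools 1.3.1-9 and bcl2fastq 1.8.4. How reads were aligned and counted, how those matching several hairpins were divided, and on which build, is not given in the sources used here.

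From these counts, filterByExpr kept 425 precursors and left out 768. TMM factors ran from 0.952 to 1.04. One edgeR 4.0.16 quasi-likelihood fit (R 4.3.3) held all libraries with a mean per age, and a second fit used age as a number. P-values were adjusted by Benjamini-Hochberg over 425. Each sum of copies replaced its copies before the fit. The fitting code was tested on simulated data. Ages came from the labels. Replicate numbers follow deposition order and pair nothing. Between replicates of 1 age, chi-square per degree of freedom was 19.6 to 304 over 50 pairs, so none was treated as a repeat deposit. Alternatives covered scaling, filters, DESeq2 1.42.0, lane and left-out libraries. Named precursors were the 5 copies, the other miR-344 rows and the 5 most alike per sum. Members and lists were chosen with earlier results of these data known. Plots used Python 3.11.15 and matplotlib 3.10.9.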

Additional observations from a re-analysis of the deposited data

Results flagged for a closer look

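At 24 months 1 library, replicate 4, which is the lane 3 library of that age, stood far from the other 4 for mir-344-2, where it was highest with 241.8 CPM against 184.5 to 201 CPM. The same library was far below the other 4 for mir-344d-2, with 98.6 CPM against 127 to 134 CPM, and for the summed miR-344d trio, with 318 CPM against 385 to 413 CPM. By Dixon's criterion 3 of the 60 age groups looked at were singled out, and chance alone singles out about 1 group in 20.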

How the results depend on the processing

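From 2 to 30 months the log2 fold change of the 5-copy sum was 0.38 to 0.43 over 10 alternatives and 0.41 to 0.47 when each library was left out. The pair gave 0.40 to 0.49 and 0.41 to 0.52, and the trio 0.35 to 0.43 and 0.34 to 0.48. Single copies gave 0.26 to 0.52, and mir-344d-2 was not called with only replicates 3 to 5 at 2 months, an alternative added after seeing the data (log2 0.30). Since the copies were chosen with this difference known, no stability is read from these ranges. The number of other family precursors called higher was 1, and it was 0 with only 2 and 30 months and 0 with only 2-month replicates 3 to 5. With each library left out it ranged from 0 to 1. Mir-344b then had a log2 fold change of 0.27 (adjusted p = 0.0725) and 0.21 (adjusted p = 0.0975) in the first of these 2 settings and the second, and the cause was not tested. Upper-quartile scaling moved the median of all precursors from 0.05 to -0.02 and the number called higher from 81 to 50. Low counts limit mir-344e and mir-344f: neither could be fitted with a minimum of 10 CPM, nor mir-344e with only 2 and 30 months. No paired analysis was possible because replicate numbers follow deposition order; lanes are the one shared term, and a fit with lane gave 0.42 for the 5-copy sum.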
